A study of Mus musculus with 15 samples.

Results

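A set of 10 genes used as markers of brain pericytes were followed in the hippocampus of mice that carried Alzheimer's disease alleles. They were the PDGF receptor gene *Pdgfrb*, *Rgs5*, *Kcnj8*, *Abcc9*, *Cspg4*, *Anpep*, *Notch3*, *Vtn*, *Atp13a5* and *Cald1*. The genes were taken by symbol, and all 10 had a row among the 55471 gene rows of the count table and passed the filter on low counts that left 16171 genes.

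RNA of the whole hippocampus of female mice aged 3 months was sequenced in 15 libraries, 3 for each of 5 groups, and the groups fell into 2 batches that differ in both collection and sequencing. Batch 1 held DM mice (AppNL-G-F/NL-G-F combined with Apoe4+/wt), APP-TKI mice (AppNL-G-F/NL-G-F) and WT mice. Batch 2 held ApoE4 mice (ApoE4+/wt) and a separate set of WT mice. DM and APP-TKI mice were homozygous for a knock-in of *App* that joins a humanised amyloid-β stretch with familial Alzheimer's disease mutations, and DM and ApoE4 mice carried 1 human *APOE4* allele beside 1 mouse *Apoe* allele, so that neither group lacked mouse ApoE. The labels number the replicates without saying more of the animals, and p-values measure the spread between these libraries.

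Pericytes lie on the outside of brain capillaries, within the basement membrane that they share with the endothelium, and help to keep the blood-brain barrier closed. Endothelial cells hold them there through PDGF-B, which binds the receptor PDGFRβ on the pericyte. Several of the markers are not made by pericytes alone: smooth muscle of arterioles shares *Notch3*, *Rgs5* and *Cald1* with them, and oligodendrocyte precursors make *Cspg4*. In RNA of whole tissue, fewer cells of a type and less RNA per cell cannot be told apart.

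The stretch before the start of 4 of the genes is printed here. *Vtn* and *Cald1* are among the markers whose libraries did not overlap between some groups, though no marker passed the threshold of the main tests. The other pair, *Kcnj8* and *Abcc9*, encodes the 2 subunits of 1 potassium channel from neighbouring genes. Sequences are from RefSeq (GRCm38.p6) and run 5′ to 3′ on the strand of the gene, ending at the base before the annotated transcript. Promoters of 9 of the 10 genes were read, and that of *Pdgfrb* was left out. *Vtn* is at chr11:78498870-78499090 (plus strand), *Cald1* at chr6:34598254-34598499 (plus), *Kcnj8* at chr6:142571615-142571864 (minus) and *Abcc9* at chr6:142702316-142702524 (minus). Capitals mark the letters TATAAA, which overlap on the 2 strands in *Vtn*, and the GC box GGGCGG, which is on the opposite strand in *Abcc9*.
Vtn: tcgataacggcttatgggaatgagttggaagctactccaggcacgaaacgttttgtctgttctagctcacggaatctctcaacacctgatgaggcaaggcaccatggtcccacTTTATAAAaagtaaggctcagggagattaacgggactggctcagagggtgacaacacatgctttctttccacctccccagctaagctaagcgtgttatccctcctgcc
Cald1: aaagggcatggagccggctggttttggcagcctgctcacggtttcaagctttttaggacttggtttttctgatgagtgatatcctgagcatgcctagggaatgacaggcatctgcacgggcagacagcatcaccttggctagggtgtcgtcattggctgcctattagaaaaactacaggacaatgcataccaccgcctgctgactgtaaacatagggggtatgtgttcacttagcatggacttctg
Kcnj8: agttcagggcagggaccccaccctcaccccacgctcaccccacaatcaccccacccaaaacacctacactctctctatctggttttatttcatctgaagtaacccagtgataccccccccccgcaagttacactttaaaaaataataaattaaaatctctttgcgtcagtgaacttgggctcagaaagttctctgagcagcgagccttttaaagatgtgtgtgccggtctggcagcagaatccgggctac
Abcc9: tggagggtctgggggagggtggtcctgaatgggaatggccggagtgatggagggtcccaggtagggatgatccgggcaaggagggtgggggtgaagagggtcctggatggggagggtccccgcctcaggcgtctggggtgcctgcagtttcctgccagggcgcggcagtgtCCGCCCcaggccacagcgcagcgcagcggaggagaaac

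The 250 bases before the start were searched on both strands for TATAAA (the core of a TATA box), for GGGCGG (the GC box), for GTGGGAA (the letters bound by RBPJ, the DNA-binding partner of Notch) and for the CArG box (bound by SRF, a regulator of contractile genes). Of the 9 genes only *Vtn* held TATAAA, against 12.3% of all 32544 promoters. Its matches lay at -137 to -130 from the RefSeq start, and whether they act as a TATA box was not tested. The GC box was found in *Abcc9*, *Cspg4*, *Anpep* and *Notch3*, and in 33.0% of all promoters. The *Anpep* window lies before a RefSeq start that is 12849 bases inside the GENCODE span of the gene. GTGGGAA and the CArG box matched in none of the 9, and in 5.4% and 1.5% of all promoters.

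Levels differed widely between the markers. Per kilobase of merged exon, the mean level over the 15 libraries was 21.3 RPKM for *Vtn*, 13.7 for *Rgs5*, 3.32 for *Cald1*, 2.68 for *Pdgfrb*, 1.83 for *Atp13a5* and 1.70 for *Cspg4*. *Notch3* (0.784), *Kcnj8* (0.664), *Abcc9* (0.652) and *Anpep* (0.364 RPKM) were the lowest, and *Anpep* rested on 28 to 99 counts and *Kcnj8* on 39 to 97 counts per library. In terms of normalised CPM, the unit of all the values that follow, *Rgs5* held 30.5%, *Vtn* 21.2% and *Cald1* 19.6% of the summed level of the 10 genes, so that a sum over the markers is largely these 3.

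Library totals lay between 32754717 and 44630808 counts. Hippocampal neuron genes summed to between 1022 and 1274 CPM in every library. The 1 *Apoe* row does not separate human from mouse reads and does not check the genotype. In batch 2, genes of the choroid plexus and ependyma summed to 1900 CPM in ApoE4 replicate 1 and 1601 CPM in WT replicate 3, against 33.7 to 137 CPM in the other 13 libraries. In batch 1, nuclear noncoding RNA took 1.26% to 1.43% of counts in DM replicate 1, APP-TKI replicates 1 and 2 and WT replicate 1, against 0.836% to 0.956% in the other 5 libraries. Values without these libraries are given where they change a result.

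**Figure D1:**
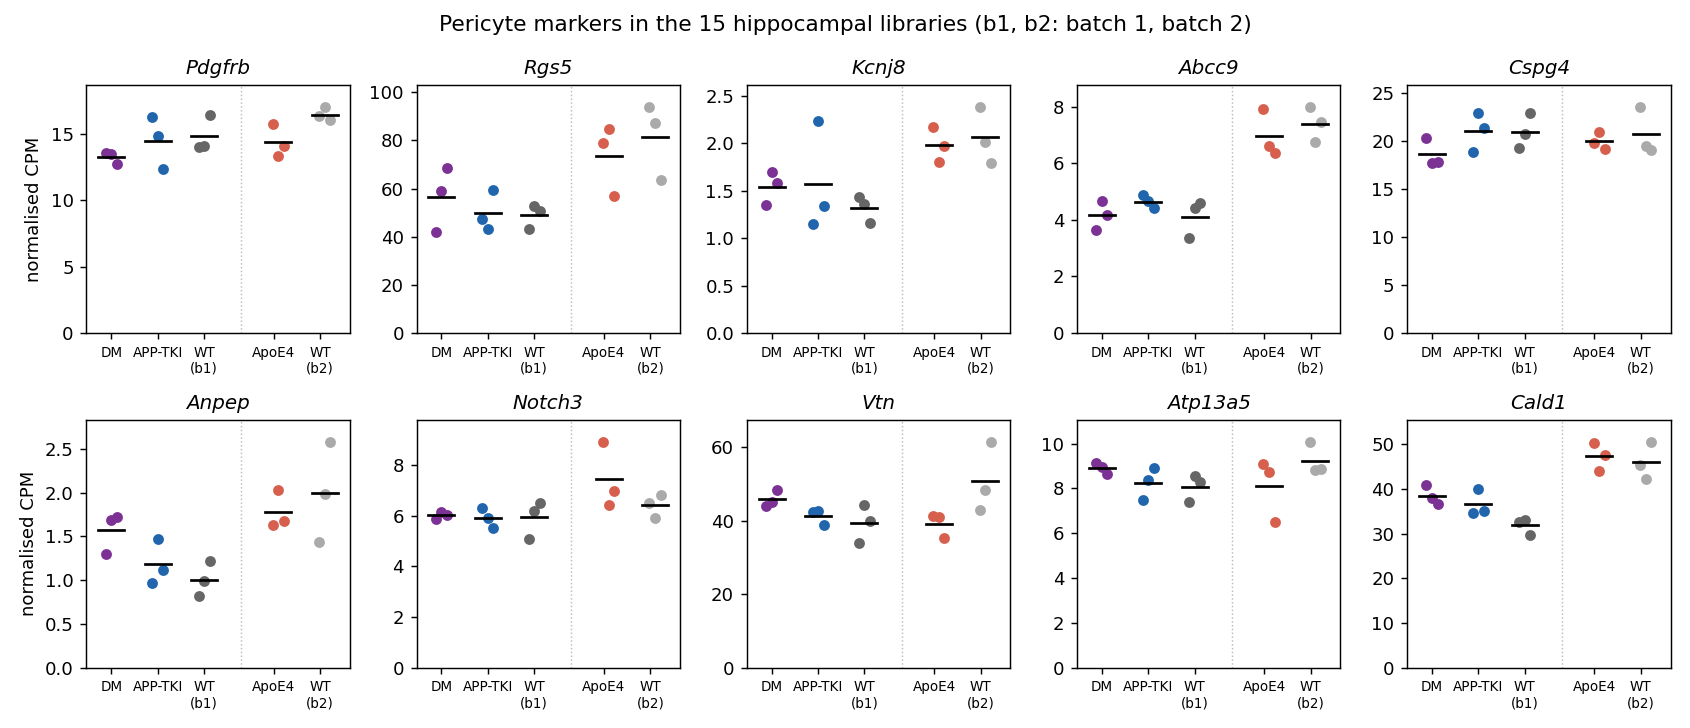
Normalised CPM (y axis, from 0) of each of the 10 pericyte markers in each library, in DM, APP-TKI and WT mice of batch 1 and in ApoE4 and WT mice of batch 2; points are libraries and bars are group means of 3. *Cald1* lies higher in all DM and APP-TKI libraries than in the WT libraries of batch 1, and *Vtn* lies lower in all ApoE4 libraries than in the WT libraries of batch 2.

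The first comparison asked whether the markers differed in DM mice, which carry both alleles, from WT mice. None of the 10 passed an adjusted p of 0.1 in edgeR's quasi-likelihood test over all genes; 0.0124% of the genes tested did (2 genes, or 11 with the replicate number as a block). The level was higher in DM mice for 8 markers, against 54.9% of genes tested, and the median log2 fold change of the 10 was 0.18, against 0.01 over all genes. It moved to 0.10 without WT replicate 1 and 0.11 without DM replicate 3. The DM and WT libraries did not overlap for 4 markers, against 10.4% of all genes. *Cald1*, *Anpep* and *Atp13a5* lay above WT, against 7.29% of genes in that direction, and *Pdgfrb* lay below, against 3.14%. An unadjusted p under 0.05 was reached by 3 markers, *Cald1*, *Anpep* and *Vtn*, against 4.55% of genes.

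*Pdgfrb* (chr18:61045150-61085061, GRCm38, as all positions here), the receptor through which PDGF-B recruits pericytes, was at 13.6, 13.5 and 12.7 CPM in DM mice, 16.3, 14.9 and 12.4 CPM in APP-TKI mice, and 14.01, 14.1 and 16.4 CPM in WT mice of batch 1. The DM libraries all lay below the WT libraries, while the APP-TKI libraries spanned both. The log2 fold change against WT was -0.16 ± 0.11 (SE) in DM mice and -0.04 ± 0.11 in APP-TKI mice. The DM value moved to -0.08 without WT replicate 3. In batch 2, *Pdgfrb* stood at 15.8, 13.4 and 14.1 CPM in ApoE4 mice and at 16.3, 17.0 and 16.03 CPM in WT mice, again without overlap. That difference was -0.19 ± 0.08 (adjusted p = 0.761, edgeR quasi-likelihood test).

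The other PDGF genes gave no value past the threshold either. Of the 5 measured, 4 ligands and the receptor *Pdgfra*, 2 were higher and 3 lower in DM than in WT mice. *Pdgfb*, which encodes the ligand of pericytes, differed by 0.00 ± 0.09 on the log2 scale. *Pdgfra*, the sister receptor found on oligodendrocyte precursors and fibroblasts, differed by -0.10 ± 0.11.

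*Rgs5* (chr1:169655501-169695813) encodes a regulator of G protein signalling and was the most abundant marker by CPM. Its level was 42.0, 59.2 and 68.5 CPM in DM mice, 47.3, 43.0 and 59.5 CPM in APP-TKI mice, and 43.2, 52.8 and 50.6 CPM in WT mice of batch 1. The DM libraries ran from the lowest of the 9 to the highest, and the fold change against WT, 0.21 ± 0.16, moved to 0.05 without DM replicate 3 and 0.39 without DM replicate 1. With the 4 libraries high in nuclear noncoding RNA left out, a choice made after the data were seen, it was 0.31 with an adjusted p of 0.0561 (edgeR quasi-likelihood test), the one setting in which a marker passed the threshold in this comparison. In batch 2, *Rgs5* was at 79.0, 84.9 and 57.1 CPM in ApoE4 mice and at 93.7, 87.3 and 63.7 CPM in WT mice, which overlapped.

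*Kcnj8* and *Abcc9* encode the pore Kir6.1 and the regulatory subunit SUR2 of the ATP-sensitive potassium channel of pericytes and vascular muscle. Their genes lie on the minus strand of chromosome 6, at chr6:142564837-142571614 and chr6:142587862-142702315, with 16247 bases between them. *Kcnj8* was at 1.35, 1.69 and 1.58 CPM in DM mice, 1.14, 2.23 and 1.33 CPM in APP-TKI mice, and 1.43, 1.36 and 1.16 CPM in WT mice of batch 1. A single APP-TKI library, replicate 2, stood above the rest, and the groups overlapped. *Abcc9* was at 3.63, 4.68 and 4.18 CPM in DM mice, 4.86, 4.66 and 4.42 CPM in APP-TKI mice, and 3.35, 4.41 and 4.60 CPM in WT mice. The log2 fold change in DM against WT mice was 0.22 ± 0.27 for *Kcnj8* and 0.01 ± 0.16 for *Abcc9*, both smaller than the SE. That of *Kcnj8* moved to 0.14 without WT replicate 3, and that of *Abcc9* ranged from -0.11 to 0.11 with 1 library left out.

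Both subunits also overlapped in batch 2. *Kcnj8* was at 2.17, 1.80 and 1.97 CPM in ApoE4 mice and at 2.37, 2.01 and 1.80 CPM in WT mice. *Abcc9* was at 7.91, 6.61 and 6.38 CPM in ApoE4 mice and at 7.98, 6.76 and 7.47 CPM in WT mice. The counts of *Abcc9* are uncertain to the extent that reads of an antisense gene within it were counted, since no source used here says whether reads were counted by strand.

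*Cspg4* (chr9:56865033-56899870) encodes the proteoglycan NG2. It was at 20.4, 17.8 and 17.9 CPM in DM mice, 18.9, 23.0 and 21.4 CPM in APP-TKI mice, and 19.3, 20.8 and 22.9 CPM in WT mice of batch 1, and the DM and WT libraries overlapped. The log2 fold change was -0.17 ± 0.10 in DM against WT mice and -0.18 ± 0.10 in DM against APP-TKI mice. Without WT replicate 3 the value against WT was -0.10, and without APP-TKI replicate 2 that against APP-TKI was -0.11. Genes of oligodendrocyte precursors, which also make NG2, were lower in DM than in WT mice for 7 of 10, with a median of -0.04, and their part in the *Cspg4* value was not tested. In batch 2, *Cspg4* was at 19.8, 20.9 and 19.2 CPM in ApoE4 mice and at 23.5, 19.6 and 19.1 CPM in WT mice.

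*Anpep* (chr7:79821803-79861059, minus strand) encodes aminopeptidase N, or CD13, an enzyme on the pericyte surface. Its level was 1.30, 1.69 and 1.72 CPM in DM mice, 0.967, 1.47 and 1.11 CPM in APP-TKI mice, and 0.816, 0.987 and 1.22 CPM in WT mice of batch 1. The DM libraries all exceeded the WT libraries, and the log2 fold change of 0.63 ± 0.25 was the largest among the markers in this comparison (adjusted p = 1.00, edgeR quasi-likelihood test). In batch 2, *Anpep* was at 1.63, 2.03 and 1.67 CPM in ApoE4 mice and at 1.44, 1.98 and 2.58 CPM in WT mice, a difference of -0.17 ± 0.23 that turned to 0.05 without WT replicate 3.

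*Notch3* (chr17:32120820-32166852, minus strand) encodes the Notch receptor of mural cells, the pericytes and smooth muscle cells of vessel walls. It was at 5.88, 6.15 and 6.01 CPM in DM mice, 6.30, 5.92 and 5.53 CPM in APP-TKI mice, and 5.10, 6.20 and 6.51 CPM in WT mice of batch 1. The 3 DM libraries lay within the range of the WT libraries, and the log2 difference was 0.02 ± 0.13. In batch 2 it was at 8.90, 6.43 and 6.98 CPM in ApoE4 mice and at 6.51, 5.89 and 6.82 CPM in WT mice, with ApoE4 replicate 1, a library rich in choroid plexus RNA, above the others. Of 12 other Notch ligands, receptors and targets, 4 were higher and 8 lower in DM than in WT mice, and none passed the threshold.

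*Vtn* (chr11:78499091-78502324) encodes vitronectin, a protein of plasma and extracellular matrix that pericytes secrete and that binds integrins. Its level was 44.1, 45.0 and 48.4 CPM in DM mice, 42.4, 42.6 and 38.7 CPM in APP-TKI mice, and 34.0, 44.1 and 39.9 CPM in WT mice of batch 1. The lowest DM library lay just below the highest WT library, and all 3 DM libraries lay above APP-TKI. The log2 fold change was 0.22 ± 0.09 against WT (adjusted p = 1.00) and 0.15 ± 0.09 against APP-TKI (edgeR quasi-likelihood test). The value against WT moved to 0.12 without WT replicate 1, the lowest library.

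In batch 2 the order was the other way round. *Vtn* was at 41.3, 41.1 and 35.3 CPM in ApoE4 mice and at 43.0, 48.3 and 61.3 CPM in WT mice, with every ApoE4 library below every WT library. The log2 fold change was -0.38 ± 0.13 (adjusted p = 0.761, edgeR quasi-likelihood test), and it moved to -0.22 without WT replicate 3. That library was 1 of the 2 rich in choroid plexus RNA and had the highest sum of smooth muscle genes, 101 CPM, and the part of these cells in the *Vtn* value was not tested. Without both choroid-rich libraries, left out together after the data were seen, the difference was -0.26.

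*Itgb3*, the β3 chain of a vitronectin receptor, was also measured. On the log2 scale it differed from WT by 0.50 ± 0.16 in DM mice (adjusted p = 0.785) and by 0.69 ± 0.16 in APP-TKI mice (adjusted p = 0.731, edgeR quasi-likelihood test), above all WT libraries in both, and DM differed from APP-TKI mice by -0.18 ± 0.15. It was 1 of 5 genes of vitronectin receptors and partners measured, and the only 1 with an unadjusted p under 0.05 in DM against WT mice, where 4.55% of all genes had one. The DM and APP-TKI values share the WT libraries.

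*Atp13a5* (chr16:29231851-29378732, minus strand) encodes a P-type ATPase that marks pericytes of the mouse brain. It was at 9.15, 8.95 and 8.65 CPM in DM mice, 7.47, 8.38 and 8.89 CPM in APP-TKI mice, and 7.37, 8.54 and 8.28 CPM in WT mice of batch 1. The DM libraries lay just above the WT libraries, and the log2 fold change was 0.15 ± 0.11, or 0.08 without WT replicate 1. In batch 2 it was at 9.07, 8.72 and 6.52 CPM in ApoE4 mice and at 10.1, 8.82 and 8.85 CPM in WT mice, which overlapped.

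*Cald1* (chr6:34598500-34775473) encodes caldesmon, which binds actin and myosin in contractile cells. It was at 40.8, 37.9 and 36.7 CPM in DM mice, 34.6, 39.9 and 35.1 CPM in APP-TKI mice, and 32.6, 33.2 and 29.8 CPM in WT mice of batch 1. Every DM and every APP-TKI library lay above every WT library. The log2 fold change against WT was 0.27 ± 0.08 in DM mice (adjusted p = 0.621) and 0.20 ± 0.08 in APP-TKI mice (adjusted p = 1.00, edgeR quasi-likelihood test). Both comparisons share the same WT libraries. In batch 2, *Cald1* was at 50.2, 44.0 and 47.6 CPM in ApoE4 mice and at 45.3, 42.2 and 50.5 CPM in WT mice, a difference of 0.04 ± 0.08.

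*Cald1* overlaps 3 annotated genes and *Notch3* 1 on the other strand, so their counts carry the same uncertainty as those of *Abcc9*. *Anpep* and *Atp13a5* each overlap 1 annotated gene on their own strand, and how reads shared with these were counted is also uncertain, whatever the strand setting.

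**Figure D2:**
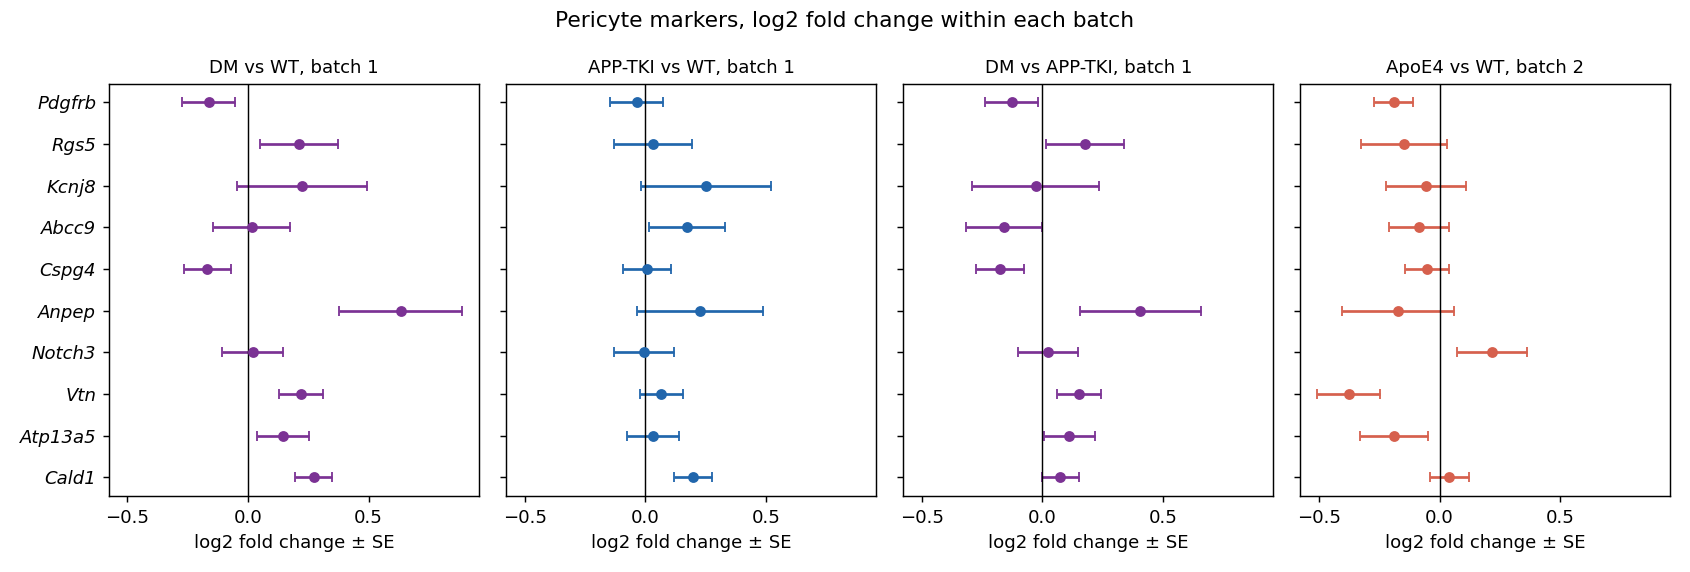
Log2 fold change (x axis) of each pericyte marker in 4 comparisons within a batch; points are estimates of edgeR's model and bars are ± 1 SE. *Anpep* at 0.63 and *Cald1* at 0.27 lie farthest above 0 in DM against WT mice, and *Vtn* at -0.38 lies farthest below 0 in ApoE4 against WT mice.

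The *App* knock-in without *APOE4* was read from APP-TKI against WT mice. No marker passed the adjusted threshold, against 0.00618% of genes (edgeR quasi-likelihood test), and *Cald1* alone had an unadjusted p under 0.05, against 3.56% of genes. *Cald1* was also the only marker whose libraries did not overlap, against 8.27% of genes in either direction and 4.71% with the mutant higher. The level was higher in APP-TKI mice for 8 of the 10, against 55.5% of genes. The median log2 fold change was 0.05, and moved to -0.03 without WT replicate 1 and to 0.12 without WT replicate 2. WT replicate 1 was the lowest of the 9 in batch 1 for 5 of the 10 markers. The *Cald1* value moved to 0.13 without APP-TKI replicate 2.

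Adding *APOE4* to the *App* knock-in was read from DM against APP-TKI mice. No marker and none of the genes tested (0%) passed the adjusted threshold in edgeR's quasi-likelihood test, and no marker had an unadjusted p under 0.05, against 3.78% of genes. The 3 DM libraries lay above the 3 APP-TKI libraries for *Vtn* alone, against 5.03% of genes in that direction and 7.93% in either. The level was higher in DM mice for 6 of the 10, against 50.4% of genes. *Anpep* had the largest difference, 0.41 ± 0.25, with overlapping libraries. *Pdgfrb*, *Cspg4* and *Abcc9* were lower in DM mice by 0.13, 0.18 and 0.16 on the log2 scale, each within 2 SE. Without the 4 libraries high in nuclear noncoding RNA, a single APP-TKI library was left, replicate 3, which had the lowest *Pdgfrb* of batch 1. Against that library the direction turned for *Pdgfrb* (0.08) and *Abcc9* (0.01). Without APP-TKI replicate 1 *Pdgfrb* was at -0.04, and without DM replicate 1 *Abcc9* was at -0.07.

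*APOE4* without the *App* knock-in was read from ApoE4 against WT mice of batch 2. Again no marker and none of the genes tested (0%) passed the adjusted threshold in edgeR's quasi-likelihood test, and 2 markers had an unadjusted p under 0.05, against 5.99% of genes. The level was higher in ApoE4 mice for 2 of the 10 markers, against 45.9% of genes, and lower for 8, and the median was -0.12, against -0.01 over all genes. It moved to -0.03 without WT replicate 1 and -0.04 without ApoE4 replicate 3. *Vtn* and *Pdgfrb* did not overlap, both lower, against 6.79% of all genes in that direction and 12.2% in either.

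The difference between these 2 effects of *APOE4*, with and without the *App* knock-in, was tested in a model of all 15 libraries. No marker and none of the genes tested (0%) passed in edgeR's quasi-likelihood test, and 1 marker, *Vtn*, had an unadjusted p under 0.05, against 6.85% of genes. It had a difference of 0.53 ± 0.16 on the log2 scale (adjusted p = 0.670, edgeR quasi-likelihood test). *Anpep* (0.58 ± 0.34), *Rgs5* (0.33 ± 0.27) and *Atp13a5* (0.30 ± 0.17) had the same sign, which 7 of the 10 markers had, against 52.6% of genes. *Anpep* moved to 0.36 without WT replicate 3 of batch 2, *Rgs5* to 0.16 without DM replicate 3 and *Atp13a5* to 0.17 without ApoE4 replicate 3. The median of the 10 was 0.05, and moved to 0.17 without APP-TKI replicate 2 and to -0.02 without APP-TKI replicate 3. Each effect was taken within its own batch, against APP-TKI mice in batch 1 and against WT mice in batch 2.

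The batches themselves differed for these genes. In WT mice of batch 2 over WT mice of batch 1, the mean CPM was 1.99-fold for *Anpep*, 1.80-fold for *Abcc9*, 1.67-fold for *Rgs5*, 1.56-fold for *Kcnj8* and 1.44-fold for *Cald1*, and 0.988-fold for *Cspg4*. For 6 markers the WT libraries of batch 2 all lay above those of batch 1, and for 4 they overlapped. The share of all genes tested that did so was not counted, so this is not a result about the markers. Genes of the endothelium moved with them, summing to between 316 and 353 CPM in WT mice of batch 2 and between 148 and 173 CPM in WT mice of batch 1. Dissection, handling and sequencing cannot be told apart here, and DM and ApoE4 mice were therefore not compared with each other.

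Other cells of the vessel wall were read beside the pericyte markers. In DM against WT mice all 16 endothelial genes were higher, against 54.9% of all genes, with a median of 0.39 on the log2 scale. Of the 16, 10 had an unadjusted p under 0.05, where 4.55% of all genes did. The study had named some of the 16, *Pecam1*, *Cdh5* and *Ptprb* among them, as higher in DM than in APP-TKI mice of these libraries. It also named *Acta2* of the smooth muscle genes below. The lists were chosen with this known, so their counts are not independent of that result. Among the 16, *Pecam1*, an adhesion molecule of endothelial junctions, was higher by 0.65 ± 0.14 and *Cdh5*, the cadherin of those junctions, by 0.72 ± 0.16. None of the 16 passed the adjusted threshold, with a smallest adjusted p of 0.146 for *Podxl* (edgeR quasi-likelihood test). These calls depend on the processing, as given in the closing section. All 8 smooth muscle genes measured were also higher, with a median of 0.44, among them *Acta2*, the actin of smooth muscle, at 1.07 ± 0.27 and *Myh11*, its myosin heavy chain, at 0.80 ± 0.20. All 12 genes of meningeal and vessel fibroblasts were higher as well, with a median of 0.51. Genes of the choroid plexus and ependyma were higher for 8 of 9, with a median of 0.89, the largest of these medians. Of the 9, 5 had an unadjusted p under 0.05. Their sums overlapped, at 49.1 to 72.9 CPM in DM and 33.7 to 63.9 CPM in WT mice. The part of these other cells in the values of the pericyte markers was not tested.

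Against APP-TKI mice the endothelial genes gave a like count: all 16 were higher in DM mice, with a median of 0.41, and 10 had an unadjusted p under 0.05. Of all genes tested, 50.4% were higher and 3.78% had such a p. The study named *Pecam1*, *Cdh5* and *Ptprb* from this same comparison, so the counts are not independent of its result. The median of the pericyte markers in that comparison was 0.05, or 0.01 without APP-TKI replicate 3 and 0.10 without APP-TKI replicate 2. In APP-TKI against WT mice 5 of the 16 endothelial genes were higher, against 55.5% of all genes, with a median of -0.05. Genes of the choroid plexus and ependyma were higher in APP-TKI mice for 9 of 9, with a median of 0.85.

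Further genes listed for pericytes and mural cells, 27 in number, were counted in the same way. Whether these genes come from such cells alone in this tissue was not tested. In DM against WT mice 24 of them were higher, with a median of 0.17, and 4 had an unadjusted p under 0.05. Of all genes tested, 54.9% were higher and 4.55% had such a p. The 27 included *Slc6a20a*, an amino acid transporter, at 0.55 ± 0.15, and *Slc12a7*, a potassium chloride cotransporter, at 0.47 ± 0.16. *Tgfbr2*, a receptor for TGF-β, was higher by 0.38 ± 0.12 among 12 genes of signals between pericytes and endothelium, 10 of which were higher. In ApoE4 against WT mice of batch 2, 23 of the 27 pericyte and mural genes were lower, with a median of -0.15. All 8 smooth muscle genes (median -0.36), all 12 fibroblast genes (-0.28) and 13 of the 16 endothelial genes (-0.09) were also lower. Of all genes tested, 45.9% were higher in that comparison. WT replicate 3, rich in choroid plexus RNA, had the highest smooth muscle sum, 101 CPM against 62.6 and 64.7 CPM in the other WT libraries, and the highest fibroblast sum, 145 CPM. The fibroblast sums overlapped, with 74.8 to 104 CPM in ApoE4 and 80.5 to 145 CPM in WT mice. Genes of the choroid plexus and ependyma were higher in ApoE4 mice for 9 of 9, and the part of WT replicate 3 and of these cells in the values was not tested. None of these genes passed the adjusted threshold (edgeR quasi-likelihood test).

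**Figure D3:**
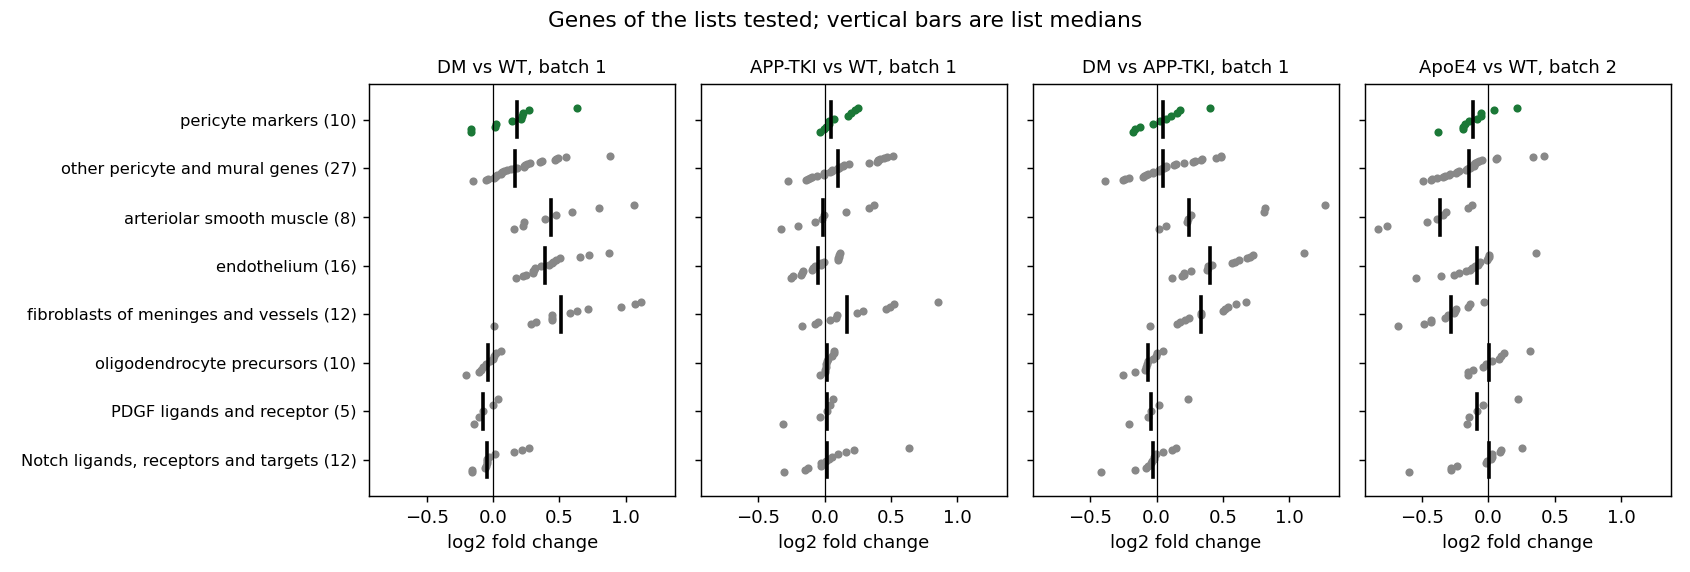
Log2 fold change (x axis) of every tested gene of 8 lists (rows, number of genes in brackets) in 4 comparisons within a batch; points are genes, green for the 10 pericyte markers, and vertical bars are list medians. In DM against WT mice the endothelial genes centre on 0.39 and the pericyte markers on 0.18.

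The summed level of the 10 markers was set against that of the 16 endothelial genes in each library, a measure chosen after the data were seen and not tested. The sum of the markers over that of the endothelial genes was 0.890, 0.995 and 0.866 in DM mice, 1.21, 1.11 and 1.09 in APP-TKI mice, and 1.09, 1.08 and 1.07 in WT mice of batch 1. The DM libraries lay below both other groups of that batch without overlap. The numerator was 182 to 206 CPM in DM and 161 to 186 CPM in WT mice, and the denominator 198 to 238 CPM in DM and 148 to 173 CPM in WT mice. In batch 2 the ratio was 0.653, 0.724 and 0.664 in ApoE4 mice and 0.708, 0.737 and 0.754 in WT mice, which overlapped.

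**Figure D4:**
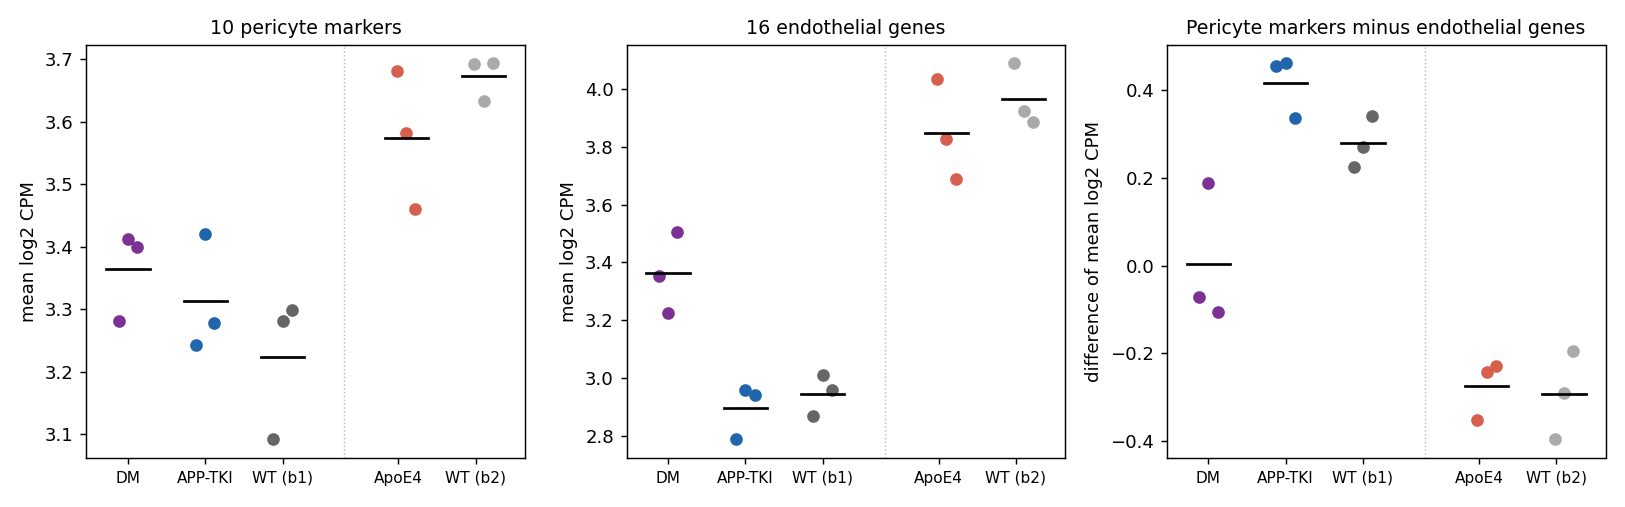
Mean log2 CPM (y axes, not from 0) of the 10 pericyte markers, of 16 endothelial genes, and the difference between them, in each library of batch 1 (DM, APP-TKI, WT) and batch 2 (ApoE4, WT); points are libraries and bars are group means of 3. The difference is -0.11 to 0.19 in DM mice, 0.34 to 0.46 in APP-TKI mice and 0.23 to 0.34 in WT mice of batch 1.

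The markers did not vary as one across libraries. With each group centred on its own mean, the correlation of a marker with the mean of the other 9 over the 15 libraries was highest for *Abcc9* (r = 0.71), *Atp13a5* (0.54) and *Notch3* (0.52) and lowest for *Rgs5* (0.10) and *Cald1* (0.07). The pair *Abcc9* and *Notch3* had the highest r, 0.82, and *Rgs5* and *Cald1* the lowest, -0.62. Outside the markers, the 8 genes whose centred level was most like the mean of the 10 were *Brsk1* (r = 0.95), *Kif16b* (0.92), *Lix1l* (0.91), *Agpat3* (0.91), *Igfbp7* (0.91), *Ptgs1* (0.90), *Ccni* (0.88) and *Cdk16* (0.88). These values are descriptions, since all points of a library share its dissection, depth and RNA quality. The 8 genes were also picked as the highest r among all tested genes outside the markers. Centring on the group means leaves fewer free values than 15, so high r can arise from that choice alone.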

How the data were processed

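Directional polyA libraries were sequenced as paired ends on a NovaSeq. Per the study's methods, the authors trimmed reads with Trimmomatic 0.39, mapped them with STAR 2.7.1a to GENCODE mouse M24 plus human *APOE*, and used HTSeq 0.11.2 to count. The deposited values are raw counts per Ensembl gene. Whether counting used strand was not stated. IDs were named with GENCODE M21, of the same build (GRCm38).

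Genes above 1 CPM in at least 3 libraries were kept. Library sizes were adjusted by upper quartile factors, and edgeR 4.0.16 (R 4.3.3) gave the quasi-likelihood test, within batch 1, within batch 2, and over all 15 libraries for the difference between the effects of *APOE4*. P-values were adjusted by Benjamini-Hochberg over all 16171 genes tested, with a threshold of 0.1. Errors of log2 fold changes are standard errors of the fit. RPKM used merged exon length. Scripts were tested on simulated counts. Depth was 32754717 to 44630808 counts per library. Alternatives were other scalings and filters, DESeq2 1.42.0, a robust likelihood ratio test, other sets of libraries, and the replicate number as a block. DM and WT libraries of the same number deviated together (r = 0.45, 0.19 and 0.30). Of unlike numbers, DM replicate 2 with WT replicate 3 (0.11) and DM replicate 3 with WT replicate 2 (0.11) were also positive. The pair with the highest r, DM and WT replicate 1, were both high in nuclear noncoding RNA, and its part was not tested. The pairing comes from the counts, not from the labels. The block also takes in the APP-TKI libraries, so it is not a paired fit of DM and WT mice alone. APP-TKI replicate 2 had an r of -0.32 with WT replicate 2 and -0.12 with DM replicate 2.

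The markers and lists were chosen with earlier results of these data known. Every marker is named in every library. Of each other list, at most 4 genes with the smallest p in DM against WT mice are named; *Pdgfb* was added after its value was seen.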

Additional observations from a re-analysis of the deposited data

Results flagged for a closer look

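*Vtn* stands here because its libraries did not overlap in opposite directions. All DM libraries lay above the APP-TKI libraries, and all ApoE4 libraries lay below the WT libraries of batch 2. It was higher in DM than in APP-TKI mice by 0.15 and differed by -0.38 in ApoE4 against WT mice of batch 2, on the log2 scale. The difference between these effects was 0.53 ± 0.16, with an adjusted p of 0.670 over all genes (edgeR quasi-likelihood test). With any 1 library left out it lay between 0.37 and 0.64, and it was lowest without WT replicate 3 of batch 2, the library with the most *Vtn*.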

How the results depend on the processing

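Under the scalings, filters, tools and sets of libraries run, a marker passed the threshold in 2 cases. *Rgs5* was called in DM against WT mice (1 of the 10 markers) without the 4 libraries high in nuclear noncoding RNA, a fit in which the lone APP-TKI library is assumed to vary like the others. *Vtn* was called in the difference between the effects of *APOE4* (1 marker, log2 0.51, adjusted p = 0.00623, edgeR quasi-likelihood test) with no filter on low counts. The cause was not tested in either case. With the replicate block, which takes in all groups of batch 1, *Cald1* stayed at 0.27 in DM against WT mice (adjusted p = 0.330, edgeR quasi-likelihood test). No marker's call changed, and *Pdgfb* became -0.00288. The same block without evidence of pairing gave 9 genes called in APP-TKI against WT and 1 in DM against APP-TKI mice. The number of all genes called in DM against WT mice, 2 as reported, was 11 with the block, 30 with only those groups in the fit, 39 with the noncoding share as a covariate, 50 with DESeq2, 131 without the 4 libraries, 136 with the robust likelihood ratio test, 179 with no filter and 1 with all libraries in 1 fit. With the robust test, DESeq2 and no filter it was 50, 25 and 83 in APP-TKI against WT mice (1 as reported), 53, 18 and 109 in DM against APP-TKI mice (0), 125, 48 and 12 in ApoE4 against WT mice (0), and 121, 26 and 393 for the difference between the effects of *APOE4* (0). Without the 4 libraries a single APP-TKI library was left, so no count is given for the comparisons with APP-TKI mice. Genes of other vessel cells in DM against WT mice, none called as reported, passed the threshold in some of 21 alternatives: *Podxl* in 5, *Pecam1* and *Acta2* in 4 each, *Cdh5*, *Ptprb*, *Myh11* and *Slc6a20a* in 2 each and *Tpm2* in 1. The smallest adjusted p came from the robust likelihood ratio test in edgeR for *Podxl* (0.00182), *Pecam1* (0.00595), *Cdh5* (0.0192) and *Tpm2* (0.0758), and from the edgeR quasi-likelihood test with no filter for *Acta2* (7.49e-05), *Ptprb* (0.0650), *Myh11* (0.0326) and *Slc6a20a* (0.0231). The cause was not tested.

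The sign changed for the following fold changes, most but not all of which lay near 0. In DM against WT mice, *Abcc9* was -0.00175 with TMM, -0.00604 with median-of-ratios scaling, -0.000198 with no filter, -0.00628 with DESeq2 and -0.0229 without the 4 libraries. *Notch3* was -0.00173 with median-of-ratios scaling, -0.00191 with DESeq2 and -0.0631 without the 4 libraries. *Pdgfb* was -0.0149 with TMM, -0.0199 with median-of-ratios scaling, -0.0135 with no filter, -0.00459 with edgeR's own filter and -0.0198 with DESeq2. In APP-TKI against WT mice, *Cspg4* was -0.00372, -0.00509, -0.0135, -0.00345 and -0.00512 in the same 5 settings. *Rgs5* was -0.000494 with the robust test and *Notch3* 0.0153 with the covariate, and without the 4 libraries *Abcc9* was -0.0284, *Cspg4* -0.0312 and *Vtn* -0.117. In DM against APP-TKI mice, *Kcnj8* was 0.0758 with the robust test, and without the 4 libraries *Kcnj8* was 0.292, *Pdgfrb* 0.0843, *Abcc9* 0.00549 and *Atp13a5* -0.0145. Values with APP-TKI mice that leave out the 4 libraries rest on a single APP-TKI library. Without the 2 choroid-rich libraries, *Anpep* was 0.109 in ApoE4 against WT mice. For the difference between the effects of *APOE4*, *Abcc9* was 0.0224 without those 2 and 0.0911 without the 4 libraries, and the markers' median was 0.169 and 0.212.

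With 1 library left out at a time, these values crossed 0. In DM against WT mice, *Abcc9* ran from -0.114 to 0.106, *Notch3* from -0.0788 to 0.0919 and *Pdgfb* from -0.0644 to 0.0905. In APP-TKI against WT mice, *Rgs5* ran from -0.113 to 0.128, *Cspg4* from -0.0577 to 0.0796, *Vtn* from -0.0275 to 0.158, *Atp13a5* from -0.0273 to 0.0993, *Notch3* from -0.103 to 0.0675, *Pdgfrb* from -0.125 to 0.0668 and *Kcnj8* from -0.0849 to 0.434. In DM against APP-TKI mice, *Kcnj8* ran from -0.209 to 0.309 and *Notch3* from -0.0225 to 0.072. In ApoE4 against WT mice, *Kcnj8* ran from -0.144 to 0.0589, *Cspg4* from -0.108 to 0.0471, *Cald1* from -0.0184 to 0.113, *Anpep* from -0.360 to 0.0509 and *Rgs5* from -0.297 to 0.00631. For the difference between the effects of *APOE4*, *Kcnj8* ran from -0.154 to 0.365, *Cald1* from -0.0381 to 0.102, *Pdgfrb* from -0.0392 to 0.153, *Abcc9* from -0.166 to 0.0291 and the markers' median from -0.0163 to 0.166. Counts of 28 to 99 for *Anpep* and 39 to 97 for *Kcnj8* per library limit the precision of these 2 genes.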
